A study of Rattus norvegicus with 8 samples.

Results

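Late cholesterol synthesis, here the formation of lanosterol and its conversion to cholesterol, was followed through the genes of 9 enzymes in rat liver. They were Lss, which makes lanosterol, and Cyp51, Tm7sf2, Msmo1, Nsdhl, Hsd17b7, Ebp, Sc5d and Dhcr7. They were taken from the gene table by their symbols, and all 9 were found among its 32545 genes and were high enough to be tested. The rats were Sprague-Dawley, an outbred stock widely used in laboratories, and came from a study that sought long noncoding RNAs (lncRNAs) linked to raised blood triglycerides. The HFD group held 5 wild-type rats given a high fat diet with 41% of calories from fat, 43% from carbohydrate and 17% from protein, for 24 weeks. The ND group held 3 wild-type rats on regular chow with 8.5% of calories from fat, 59.6% from carbohydrate and 20.3% from protein. The chow shares as given do not account for all calories, which was not resolved. Each group began with 12 rats, the labels give an age of about 22 weeks for both, and a feeding time longer than that age was not resolved. Each library was made from the liver of 1 rat, and the sources used here do not give the cholesterol content of either diet.

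Lanosterol is the first sterol with the ring system of cholesterol. On the membrane of the endoplasmic reticulum it loses its surplus methyl groups, and its double bonds are moved and reduced until cholesterol remains. The genes of this pathway are classic targets of the sterol regulatory element-binding proteins (SREBPs), which leave the endoplasmic reticulum and activate transcription when membrane sterol is low. In the liver the product serves membranes, lipoproteins and bile acids.

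The libraries held 12678616 to 36152937 gene counts and fell into a deep set of 4 (HFD-1, HFD-2, ND-1 and ND-3, at 30501673 counts or more) and a shallow set of 4 (HFD-3, HFD-4, HFD-5 and ND-2, at 18401981 or fewer). Defining hepatocyte markers were high in every library, with a summed level of 68030 to 71542 FPKM (counts scaled to gene length and library total, the authors' unit) in HFD and 63191 to 68764 FPKM in ND. Alb made up most of each sum, at 38813 to 43759 FPKM over all libraries. The sum hides Cps1, at 943 to 1587 FPKM in HFD and 1318 to 2108 FPKM in ND. It also hides Apob, at 829 to 1153 FPKM in HFD and 729 to 877 FPKM in ND. HFD-3 stood apart in immune markers. Its summed level of 8 Kupffer cell and macrophage genes was 423 FPKM, against 147 to 219 FPKM in the other HFD livers and 186 to 250 FPKM in ND livers, and its level of 8 lymphocyte and neutrophil genes was 48.9 FPKM, against 8.01 to 20.0 FPKM in the other HFD livers and 9.17 to 25.3 FPKM in ND livers. ND-3 stood apart in clock genes, lying outside the range of the other 7 libraries for 14 of 17. The summed level of 5 adipocyte genes was 18.6 to 24.6 FPKM in HFD and 17.0 to 19.5 FPKM in ND, with Lep and Plin1 under 0.1 FPKM in every library. That of 4 pancreas genes was 5.11 to 11.6 FPKM in HFD and 6.92 to 7.37 FPKM in ND, with Prss1, Cpa1 and Amy2a3 under 0.1 FPKM in every library.

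All 9 genes were lower on the high fat diet in the fit, by log2 fold changes of -0.65 to -1.70, and their mean FPKM in HFD livers was 31.0% to 64.2% of that in ND livers. None of the 9 passed at an adjusted p under 0.05 (edgeR's quasi-likelihood test, Benjamini-Hochberg over 14148 genes), where 1 gene of all those tested, or 0.00707%, was called lower. At an unadjusted p under 0.05 all 9 were lower, a class that holds 2.83% of tested genes, while a fitted value below 0 was found for 48.8%. In 5 of the 9, Lss, Nsdhl, Hsd17b7, Ebp and Dhcr7, every HFD liver lay below every ND liver, which was so for 1.65% of tested genes. DESeq2 called 6 of the 9 lower, the same 5 and Cyp51, where it called 0.481% of all genes lower. With genes of low counts kept in the edgeR fit, Lss and Ebp passed, where 0.0512% of genes were called lower. The median log2 fold change of the 9 was -1.33, beside 0.0059 over all genes tested. It was -1.45 without HFD-3, -1.33 without ND-3 and -1.03 without ND-2. It was -0.99 within the deep set and -1.70 within the shallow set, whose single ND library is ND-2. In whole liver, fewer cells of a type and less RNA per cell cannot be told apart.

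**Figure D1:**
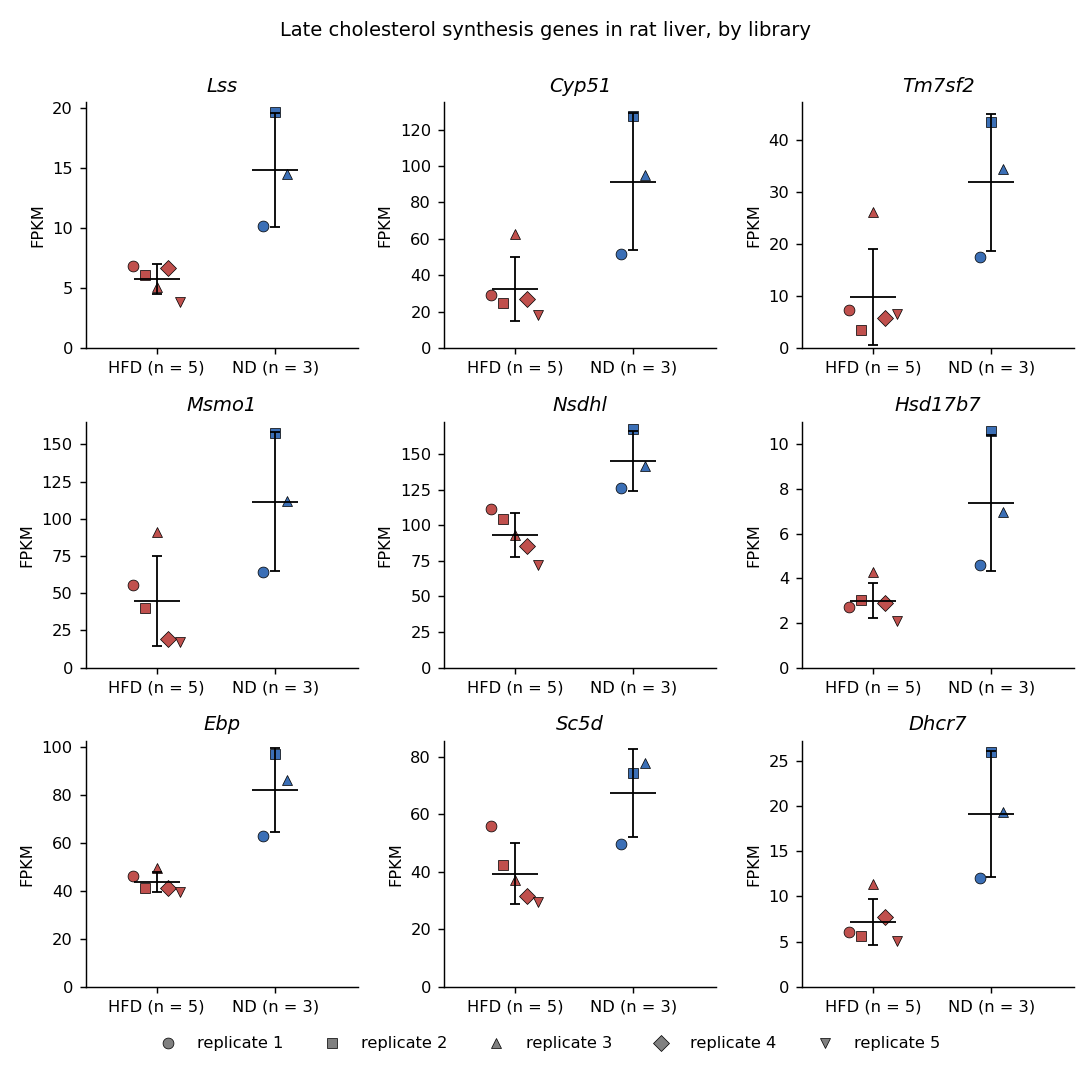
Level of each of the 9 genes in FPKM (vertical axes, from 0, scaled per gene) in 5 HFD and 3 ND livers, with 1 symbol per library and bars for the mean and SD. HFD lies below ND without overlap for Lss, Nsdhl, Hsd17b7, Ebp and Dhcr7, and HFD-3 is the high HFD point for Cyp51, Tm7sf2 and Msmo1.

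The stretch just upstream of these genes was read from RefSeq (assembly GRCr8) as windows of 300 bases, from 250 before to 50 after the annotated start, and all 9 genes matched a window by symbol. Windows of Ebp (chrX:16971212-16971511, plus strand) and Lss (chr20:12118181-12118480, minus strand) are shown because these genes had the smallest p. That of Nsdhl (chrX:155817110-155817409, plus strand) was added after the search because it holds the most CCAAT boxes. Capitals mark CCAAT, the box bound by the trimeric factor NF-Y, which appears as ATTGG where it lies on the opposite strand.
Ebp: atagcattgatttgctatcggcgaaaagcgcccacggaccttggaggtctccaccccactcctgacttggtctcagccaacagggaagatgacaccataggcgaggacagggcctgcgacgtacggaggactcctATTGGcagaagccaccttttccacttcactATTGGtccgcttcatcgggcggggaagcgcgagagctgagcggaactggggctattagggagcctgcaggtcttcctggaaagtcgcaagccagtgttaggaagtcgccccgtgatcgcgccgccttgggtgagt
Lss: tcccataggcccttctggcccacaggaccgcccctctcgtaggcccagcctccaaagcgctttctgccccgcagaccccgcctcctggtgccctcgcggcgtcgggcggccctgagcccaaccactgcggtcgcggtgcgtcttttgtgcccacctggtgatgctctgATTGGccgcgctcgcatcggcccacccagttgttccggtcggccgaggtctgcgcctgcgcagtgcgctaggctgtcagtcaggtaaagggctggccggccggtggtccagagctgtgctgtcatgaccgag
Nsdhl: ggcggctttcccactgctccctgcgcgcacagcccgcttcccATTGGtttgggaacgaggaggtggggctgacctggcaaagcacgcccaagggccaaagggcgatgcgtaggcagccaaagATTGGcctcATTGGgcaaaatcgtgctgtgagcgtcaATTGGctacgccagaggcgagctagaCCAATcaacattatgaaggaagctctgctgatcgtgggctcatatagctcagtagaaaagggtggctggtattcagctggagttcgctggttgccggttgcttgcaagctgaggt
The CCAAT box occurred 17 times in 7 of the 9 windows, against 37.5% of all 33469 rat windows with at least 1, and 5 of the 9 held 2 or more, against 11.2%. Nsdhl held 5, Msmo1 and Hsd17b7 held 3 each, and the windows of Cyp51 and Dhcr7 held none. In Lss, Tm7sf2, Nsdhl, Hsd17b7, Ebp and Sc5d an opposite-strand box began 82 to 91 bases before the start. Over all windows 2.57% held such a box with its first base 75 to 95 bases before the start, a stretch chosen after the positions were seen.

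Both strands were also searched for 3 other motifs, and in the 9 windows no match of one motif shared a base with a match of another. GGGCGG, the Sp1 box, lay in 8 of the 9 windows, all but that of Nsdhl, and in 33.1% of all windows, and the 2 boxes of Dhcr7 overlap each other. TGACG, a half-site for factors of the CREB family, lay in 5 of the 9 (Cyp51, Msmo1, Nsdhl, Hsd17b7 and Sc5d) and in 21.2% of all. TCACNCCAC, the classic sterol regulatory element, lay in none of the 9 and in 1.12% of all, which says only that these letters are not in these windows. The 9 windows had a GC content of 57.3% to 71.0%, and the median over all windows was 51.7%. The part of base composition in the match rates was not tested.

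**Figure D2:**
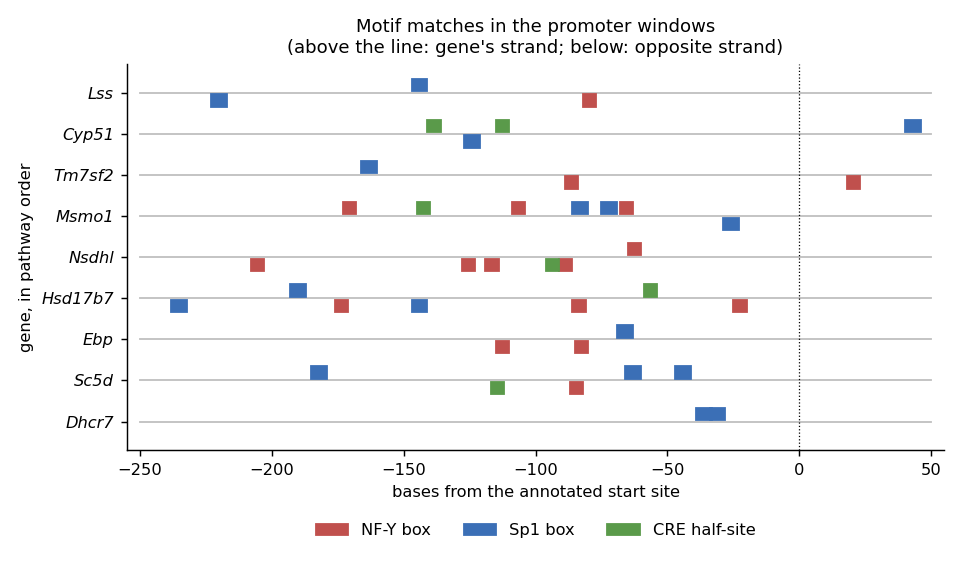
Motif matches in the promoter windows of the 9 genes, in pathway order from top to bottom, by distance in bases from the annotated start (horizontal axis, dotted line at the start). Matches on the gene's strand sit above the line and those on the opposite strand below it, and 6 genes carry a red NF-Y box 82 to 91 bases before the start.

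Lss (ENSRNOG00000054549, Rnor_6.0 chr20:12842884-12870497, the build of all gene and lncRNA positions) encodes lanosterol synthase, which folds oxidosqualene into lanosterol. It stood at 6.88, 6.10, 5.08, 6.69 and 3.86 FPKM in HFD-1 to HFD-5, against 10.2, 19.7 and 14.5 FPKM in ND-1 to ND-3. All HFD livers lay below all ND livers. The means were 5.72 ± 1.25 FPKM in HFD and 14.8 ± 4.74 FPKM in ND (SD, n = 5 and n = 3), and the log2 fold change was -1.38 ± 0.21 (SE; adjusted p = 0.0851 by edgeR, 4.28e-06 by DESeq2). Its window above holds 1 CCAAT box and 2 Sp1 boxes.

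Cyp51 (ENSRNOG00000007234, chr4:27175243-27194018) encodes the cytochrome P450 that removes the first methyl group of lanosterol, the enzyme whose fungal counterpart is the target of azole drugs. It stood at 29.2, 24.6, 63.0, 27.2 and 18.0 FPKM in HFD-1 to HFD-5, against 52.0, 127 and 95.2 FPKM in ND-1 to ND-3. HFD-3 lay above ND-1, and the other 4 HFD livers lay below all ND livers. The log2 fold change was -1.50 ± 0.38 (SE, adjusted p = 0.372 by edgeR, 0.0156 by DESeq2). It was -1.89 without HFD-3 (adjusted p = 0.0789 by edgeR) and -1.23 without ND-2 (adjusted p = 0.858 by edgeR).

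Tm7sf2 (ENSRNOG00000020989, chr1:221425987-221431713) encodes a sterol reductase that saturates the double bond left by this demethylation. It stood at 7.27, 3.51, 26.1, 5.83 and 6.65 FPKM in HFD-1 to HFD-5, against 17.5, 43.5 and 34.4 FPKM in ND-1 to ND-3. The HFD liver HFD-3 lay above ND-1, and the 4 others lay below all ND livers. The mean of 9.87 ± 9.17 FPKM in HFD had an SD nearly as large as itself, against 31.8 ± 13.2 FPKM in ND. Its log2 fold change was -1.70 ± 0.57 (SE, adjusted p = 0.672 by edgeR, 0.518 by DESeq2). This was the largest in size of the 9 and the one with the widest error. It was -2.44 without HFD-3 (adjusted p = 0.0789 by edgeR), -1.63 without ND-3 and -1.45 without ND-2 (adjusted p = 0.895 by edgeR).

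The lamin B receptor gene Lbr encodes a second enzyme for the same reduction, in the nuclear envelope. Lbr stood at 3.95 ± 0.939 FPKM in HFD and 4.20 ± 0.358 FPKM in ND, with a log2 fold change of -0.10 (adjusted p = 0.993 by edgeR), which was -0.23 without HFD-3, -0.062 without HFD-1, -0.018 without HFD-4 and -0.065 without ND-2. The ratio of Tm7sf2 to Lbr in FPKM was 2.04, 0.799, 4.86, 1.93 and 1.95 in HFD-1 to HFD-5, against 4.42, 9.42 and 8.53 in ND-1 to ND-3. HFD-3 was again the 1 HFD liver inside the ND range. The log2 ratio was lower by 1.84 in HFD, at 0.98 ± 0.92 in HFD and 2.82 ± 0.59 in ND, with an exact permutation p of 0.0714 (2-sided over 56 arrangements, of which the smallest possible p is 0.0357), which does not pass.

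Removal of the 2 remaining methyl groups takes 3 enzymes. Msmo1 (ENSRNOG00000032297, chr16:26859397-26875973), the methylsterol oxidase, stood at 55.5, 40.2, 91.1, 19.1 and 17.3 FPKM in HFD-1 to HFD-5, against 64.4, 158 and 112 FPKM in ND-1 to ND-3. HFD-3 lay above ND-1, and HFD-4 and HFD-5 were the lowest livers. The log2 fold change was -1.33 ± 0.50 (SE, adjusted p = 0.802 by edgeR, 0.726 by DESeq2). It was -1.75 without HFD-3 and -1.03 without ND-2.

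Nsdhl (ENSRNOG00000057814, chrX:152933069-152964390), the dehydrogenase that releases the oxidised carbon as carbon dioxide, was the most abundant of the 9 in both diets. It stood at 112, 104, 93.3, 85.0 and 72.0 FPKM in HFD-1 to HFD-5, against 126, 168 and 142 FPKM in ND-1 to ND-3. The diets did not overlap. The means of 93.2 ± 15.6 FPKM in HFD and 145 ± 21.0 FPKM in ND gave the smallest log2 fold change of the 9 in size, -0.65 ± 0.15 (SE; adjusted p = 0.272 by edgeR, 0.00684 by DESeq2). It was -0.37 within the deep set and -0.94 within the shallow set.

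Hsd17b7 (ENSRNOG00000002826, chr13:88288046-88307988), the keto reductase that closes each round and can also act on steroid hormones, was the least abundant. It stood at 2.70, 3.03, 4.28, 2.91 and 2.10 FPKM in HFD-1 to HFD-5, against 4.58, 10.6 and 6.96 FPKM in ND-1 to ND-3. The diets did not overlap, though HFD-3 came close to ND-1. The log2 fold change was -1.30 ± 0.26 (SE; adjusted p = 0.151 by edgeR, 0.00118 by DESeq2).

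Ebp (ENSRNOG00000004903, chrX:15049462-15055781) encodes the isomerase that shifts the ring double bond, and is named after the drug emopamil, which it binds. It stood at 46.2, 41.3, 49.7, 41.3 and 39.5 FPKM in HFD-1 to HFD-5, against 62.9, 96.9 and 86.3 FPKM in ND-1 to ND-3. The HFD livers were tightly grouped, at 43.6 ± 4.24 FPKM, and all lay below the ND livers, at 82.1 ± 17.4 FPKM. The log2 fold change of -0.92 ± 0.13 (SE) had the smallest p of the 9 and the 9th smallest of all genes tested (adjusted p = 0.0851 by edgeR, 3.29e-06 by DESeq2). It passed edgeR without ND-1, the lowest ND liver (log2 fold change -1.06, adjusted p = 0.0456), where 0.05% of genes were called lower. Without ND-2 its log2 fold change was -0.82 (adjusted p = 0.277 by edgeR). Its window above holds 2 CCAAT boxes.

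Sc5d (ENSRNOG00000008305, chr8:46525400-46537050) encodes the desaturase that then adds a double bond and yields the provitamin D sterol dehydrocholesterol. It stood at 56.1, 42.3, 37.3, 31.6 and 29.4 FPKM in HFD-1 to HFD-5, against 49.8, 74.5 and 78.0 FPKM in ND-1 to ND-3. HFD-1 lay above ND-1, and the other 4 HFD livers lay below all ND livers. The log2 fold change was -0.79 ± 0.21 (SE; adjusted p = 0.453 by edgeR, 0.0685 by DESeq2), at -0.44 within the deep set and -1.11 within the shallow set.

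Dhcr7 (ENSRNOG00000020776, chr1:217018916-217034904) encodes the reductase that turns dehydrocholesterol into cholesterol, the enzyme lost in Smith-Lemli-Opitz syndrome in humans. It stood at 6.06, 5.59, 11.4, 7.73 and 5.11 FPKM in HFD-1 to HFD-5, against 12.0, 26.0 and 19.3 FPKM in ND-1 to ND-3. The diets did not overlap, with HFD-3 just under ND-1. The log2 fold change was -1.42 ± 0.28 (SE; adjusted p = 0.154 by edgeR, 0.000859 by DESeq2).

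The same livers were high or low for most of the 9 genes. HFD-3 was the highest HFD liver for 6 genes and HFD-1 for 3, and HFD-5 was the lowest for 8, all but Tm7sf2, which was lowest in HFD-2. In ND, ND-1 was the lowest for all 9, and ND-2 the highest for 8, all but Sc5d. Summed over the 9 genes the level was 321, 271, 381, 227 and 194 FPKM in HFD-1 to HFD-5, against 400, 724 and 588 FPKM in ND-1 to ND-3. The sums did not overlap, with HFD-3 close under ND-1. HFD-3, the highest HFD sum, was also the library with the highest immune markers, and ND-2, the highest ND sum, was the ND library of the shallow set. ND-2 also had the highest level of 8 stellate cell genes, at 116 FPKM against 55.1 to 95.7 FPKM in HFD livers and 73.7 and 80.2 FPKM in the other ND livers. It had the highest level of 6 cholangiocyte genes as well, at 10.02 FPKM against 4.64 to 8.31 FPKM in HFD livers and 8.54 and 5.75 FPKM in the other ND livers. Other markers varied with other livers. The summed level of 3 erythroid genes was 468, 620 and 1424 FPKM in ND-1 to ND-3, against 755 to 1347 FPKM in HFD livers. That of 7 endothelial genes was 68.6 to 76.3 FPKM in HFD and 59.8 to 70.0 FPKM in ND. The part of depth and of these markers in the spread was not tested.

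**Figure D3:**
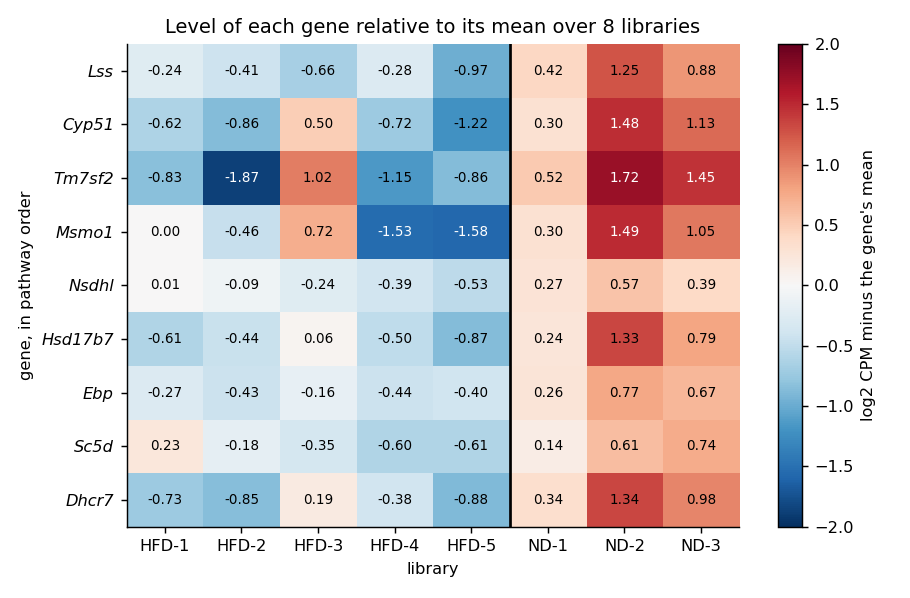
Level of each of the 9 genes (rows, in pathway order) in each library (columns, HFD left of the black line and ND right of it) as log2 CPM (counts scaled to library size) minus the gene's mean over 8 libraries. ND-2 and ND-3 are red for every gene, ND-1 is pale red, and HFD-3 stands at 0.50 for Cyp51, 1.02 for Tm7sf2 and 0.72 for Msmo1 while the other HFD columns are mostly blue.

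The 9 genes differed in how evenly they were expressed among HFD livers. The highest HFD liver was 7.43 times the lowest for Tm7sf2, 5.26 times for Msmo1 and 3.50 times for Cyp51, against 1.26 times for Ebp and 1.55 times for Nsdhl. In ND the same ratio was 2.48 for Tm7sf2, 2.45 for Msmo1 and Cyp51, 1.54 for Ebp and 1.33 for Nsdhl. As a share of the summed FPKM of the 9, Nsdhl made up 24.5% to 38.5% in HFD livers and 23.2% to 31.6% in ND livers. Msmo1 made up 8.41% to 23.9% in HFD and 16.1% to 21.8% in ND, with the low end in HFD-4 and the high end in HFD-3. Tm7sf2 made up 1.30% to 6.84% in HFD and 4.39% to 6.01% in ND.

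By mean FPKM, a measure per length, the order in HFD was Nsdhl, Msmo1, Ebp, Sc5d, Cyp51, Tm7sf2, Dhcr7, Lss and Hsd17b7, and every pair of neighbours overlapped in range. In ND, Cyp51 stood before Ebp and Sc5d, and the order was otherwise the same. There the 1 pair of neighbours with separate ranges was Sc5d and Tm7sf2. The ratio of each gene to each other gene was also compared between the diets over all 36 pairs, a comparison chosen after the levels were seen. The ranges were separate for 2, with Lss lower relative to Nsdhl by a log2 ratio difference of -0.70 and lower relative to Ebp by -0.46 in HFD. Each had an exact permutation p of 0.0357, the smallest possible, and none of the 36 passed adjustment (p = 0.429, Benjamini-Hochberg over 36 pairs).

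Genes whose profile over the 8 libraries was most like the mean profile of the 9 were ranked by the root mean square difference of centred log2 CPM, among 11500 genes outside the 9 at a mean of 1 FPKM or more. Among the 5 closest were Fdft1 at 0.120, Fdps at 0.176, Pmvk at 0.269 and Acsl3 at 0.311, against a median of 0.746 over the candidates. Fdft1 encodes squalene synthase, Fdps farnesyl diphosphate synthase, Pmvk phosphomevalonate kinase, and Acsl3 an acyl-CoA synthetase. Among the 9 themselves, Hsd17b7 lay closest to their mean at 0.148, followed by Dhcr7 at 0.201. Each of the 9 is part of that mean, which makes its own distance smaller, unlike that of genes outside the 9. Tm7sf2 lay farthest at 0.660, and 1474 genes outside the 9 were closer than it.

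The early steps, from acetyl-CoA units to squalene epoxide, were described by 10 genes. Each of the 10 had a fitted value below 0, as did 48.8% of tested genes, and the median log2 fold change of the 10 was -1.41. By edgeR 0 passed, and 9 had an unadjusted p under 0.05, a class that holds 2.83% of tested genes among those lower in HFD. By DESeq2 5 passed, where 0.481% of all genes were called lower. Fdps stood at 32.4 ± 10.2 FPKM in HFD and 95.7 ± 39.2 FPKM in ND (log2 fold change -1.57, adjusted p = 0.118 by edgeR), and Acat2, the cytosolic thiolase, at 2.36 ± 0.883 FPKM in HFD and 10.4 ± 6.20 FPKM in ND (-2.14, adjusted p = 0.118 by edgeR). Both were named for the smallest p of the 10. Every HFD liver lay below every ND liver for them, as for 4 of the 10 in all and for 1.65% of tested genes. Sqle, the squalene epoxidase just before Lss, chosen after its values were seen, passed edgeR without HFD-3 (log2 fold change -3.27, adjusted p = 0.0330). In that fit 0.0139% of genes were called lower. Sqle did not pass edgeR with every library (-2.04, adjusted p = 0.785) or without ND-2 (-1.68, adjusted p = 0.905).

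Among 8 other genes of the late steps and their electron donors, 5 had fitted values below 0 and 3 above it. Of all tested genes 48.8% were fitted below 0. By edgeR 0 passed. DESeq2 called 2 lower, Cyb5r3 among them, where it called 0.481% of all genes lower. At an unadjusted p under 0.05 there were 5, of which 4 were lower and Pgrmc1 was higher, in a class that holds 5.71% of tested genes in either direction. Cyb5r3, a cytochrome b5 reductase, stood at 69.3 ± 6.56 FPKM in HFD and 104 ± 17.1 FPKM in ND. Its log2 fold change was -0.60 (adjusted p = 0.165 by edgeR, 0.00118 by DESeq2). Every HFD liver lay below every ND liver for it, as for 2 of the 8 in all and for 1.65% of tested genes. Pgrmc1, a haem-binding partner of cytochromes P450 such as that of Cyp51, was chosen after its values were seen. All 5 HFD livers lay above all ND livers for it, as for 2.25% of tested genes, at 554 ± 80.3 FPKM in HFD and 391 ± 38.1 FPKM in ND, and it did not pass (log2 fold change 0.48, adjusted p = 0.596 by edgeR).

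**Figure D4:**
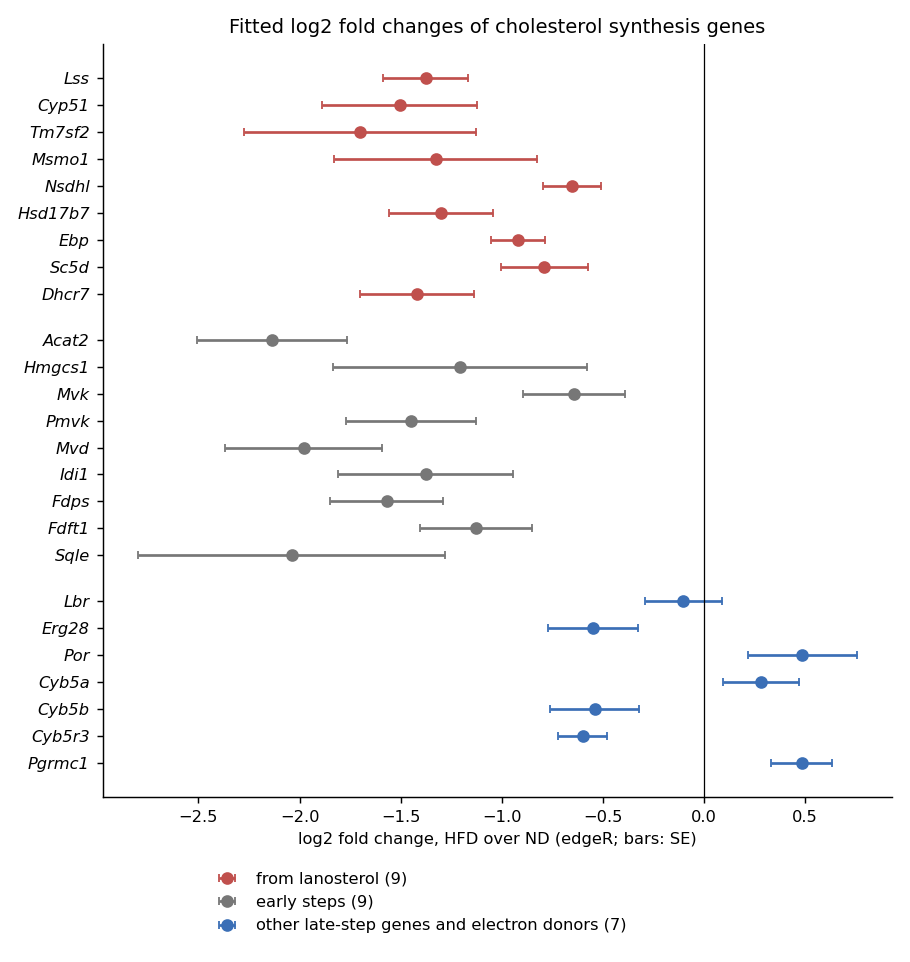
Fitted log2 fold changes of HFD over ND for cholesterol synthesis genes (horizontal axis, edgeR, bars for the SE, vertical line at 0). The 9 genes, labelled from lanosterol though Lss makes it, are in red. In grey are 9 of the 10 early-step genes and in blue 7 of the 8 other late-step genes and electron donors. All red and grey points lie below 0, and the blue points lie on both sides.

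Other cholesterol genes varied more in direction. Of 10 genes of sterol sensing, 7 were fitted below 0, as were 48.8% of tested genes, at a median of -0.045 on the log2 scale. Insig1, whose protein holds the SREBPs in the endoplasmic reticulum and whose gene is itself an SREBP target, stood at 43.3, 67.8, 166, 111 and 118 FPKM in HFD-1 to HFD-5, against 264, 323 and 237 FPKM in ND-1 to ND-3. The HFD livers all lay below the ND livers for Insig1, for 1 of the 10 in all and for 1.65% of tested genes. Insig1 passed DESeq2 but not edgeR (log2 fold change -1.45, adjusted p = 0.0143 by DESeq2, 0.356 by edgeR). Srebf1 had a log2 fold change of -0.84 (adjusted p = 0.836 by edgeR), which was -0.45 without ND-2. Srebf2, the SREBP gene tied most closely to sterol synthesis and chosen after its values were seen, had one of -0.41 (adjusted p = 0.942 by edgeR), which was -0.19 without ND-2.

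Of 6 genes of uptake and transfer, 5 were fitted below 0, as were 48.8% of tested genes, at a median of -0.26 on the log2 scale. By edgeR 0 passed, while DESeq2 called 1 lower, where it called 0.481% of all genes lower. Of 12 genes of sterol export and use, 10 were fitted above 0, as were 7248 of 14148 tested genes, at a median of 0.16. None of the 12 passed edgeR, where 0 had an unadjusted p under 0.05, or DESeq2, where 1 did. Of the 14148 tested genes, 808 had such a p by edgeR and 863 by DESeq2. Abcg5, which forms the sterol pump of the bile canaliculus with Abcg8, stood at 7.60 ± 5.42 FPKM in HFD and 3.71 ± 1.77 FPKM in ND, with HFD-4 at 17.2 FPKM (log2 fold change 0.97, adjusted p = 0.940 by edgeR). Its log2 fold change was 0.44 without HFD-4 and 1.47 without ND-1. Abcg8, chosen after its values were seen, stood at 0.503 ± 0.491 FPKM in HFD and 0.656 ± 0.427 FPKM in ND (log2 fold change -0.50, adjusted p = 0.993 by edgeR), and its fitted value ranged from -1.28 without HFD-4 to 0.097 without ND-1. Soat2, which esterifies cholesterol, had a log2 fold change of 0.27, which was 0.062 without ND-3 and 0.43 without ND-2. Of 4 genes of the oxysterol and vitamin D branch 2 could be tested, and neither passed. Cyp2r1, the vitamin D hydroxylase, had a log2 fold change of -0.37. Cyp7b1, an oxysterol hydroxylase, had one of -0.57, which was -0.27 without ND-3 and -0.86 without ND-2.

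The lncRNA table, which may hold the same reads as the gene table, held 7 transcripts that overlap 5 of the 9 genes, namely Tm7sf2, Msmo1, Hsd17b7, Ebp and Sc5d. All 7 had lower values on the high fat diet, as did 52.4% of 19799 tested lncRNAs, and 0 passed (limma on log2(FPKM + 0.5), where 0.0101% of all passed in either direction). At an unadjusted p under 0.05 there were 5 of the 7, a class that holds 2.58% of tested lncRNAs among those lower in HFD. For 3 of the 7 every HFD liver lay below every ND liver, against 2.14% of all. The transcript at the end of Ebp, NONRATT030440.2 (chrX:15055368-15055783), stood at 689, 674, 752, 615 and 513 FPKM in HFD-1 to HFD-5, against 1029, 1379 and 1416 FPKM in ND-1 to ND-3. The diets did not overlap, and its log2 difference of -0.97 (adjusted p = 0.269 by limma) was close to the log2 fold change of Ebp. The transcript within Tm7sf2, NONRATT003487.2 (chr1:221429753-221430355), stood at 8.44, 3.71, 15.6, 5.85 and 3.27 FPKM in HFD-1 to HFD-5, against 10.9, 51.0 and 49.0 FPKM in ND-1 to ND-3, and HFD-3 was again the HFD liver above ND-1 (log2 difference -2.18, adjusted p = 0.672 by limma).

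The other 2 transcripts with separate ranges were NONRATT011461.2 within Msmo1 (log2 difference -1.31, and -0.85 without HFD-5) and NONRATT008934.2 within Hsd17b7 (-1.18). Whether counting used strand is unknown from the sources, and a lncRNA's reads cannot be told apart from those of its overlapping gene. Vps51, a gene of vesicle tethering, had a log2 fold change of 0.19. It overlaps the start of Tm7sf2, a minus-strand gene in GRCr8, by 1066 bases. LOC100366054, annotated over the whole span of Hsd17b7, held 0 to 2 counts per library.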

How the data were processed

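RNA from the livers of 5 HFD and 3 ND rats was sequenced from TruSeq libraries, per the labels' protocols, and the titles give each library's diet and replicate number. Per the submitters' processing notes, the tools were TopHat2 2.0.9, Cufflinks 2.2.1 and Cuffdiff and the build was Rnor_6.0. The sources used here do not give the tool behind each column, the gene annotation or any use of strand. Per Ensembl gene, counts in whole numbers and FPKM were deposited, and FPKM equalled the count over gene length and table total (largest relative spread of the lengths so implied 1.8e-05). Per lncRNA transcript, FPKM and a scaled signal were deposited, of which the signal was not used. Gene coordinates are those of the deposited tables, with lncRNA starts moved by 1 base to count from 1.

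Counts were tested with edgeR 4.0.16 (TMM scaling, filterByExpr, quasi-likelihood, 2-sided) in R 4.3.3, which kept 14148 of 32545 genes. An adjusted p under 0.05 counted as passing. Centred log2 CPM (edgeR's counts scaled by library size) used a prior count of 2. The lncRNAs were tested with limma 3.58.1 (trended variance) on log2(FPKM + 0.5), for 19799 of 31243 transcripts at 0.5 FPKM or more in at least 3 libraries, which understates the change of low transcripts. Cyp51, Tm7sf2 and the other 7 genes and all lists (50 cholesterol symbols, all found, 1 by synonym, 48 tested; 59 marker symbols, 57 found, 49 tested) were chosen with earlier results of these data known. From each cholesterol list the genes that passed or, with none, the 2 with the smallest p were named, as were Lbr and the 5 most alike genes, except that some genes these rules pick are not reported here; Sqle, Hmgcs1, Srebf2, Pgrmc1, Por and Abcg8 were chosen after their values were seen. The p-values measure the spread between libraries of different rats, in which rat and library preparation cannot be told apart with 1 library per rat. The biological coefficient of variation was 26%. The smallest count of the 9 genes in a library was 152, for Hsd17b7. The tests were tried first on simulated data with known changes. Alternatives were other scalings, filters, DESeq2 1.42.0, limma-voom, limma on log2(FPKM + 1), a replicate block, the depth set as a covariate and fits without each library. Fits within each depth set were chosen after seeing the data.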

Additional observations from a re-analysis of the deposited data

Results flagged for a closer look

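Of 39 groups of 5 HFD libraries examined, 7 held 1 library far from the other 4. The rule flags about 1 in 20 groups by chance, but the 7 cannot be set against that rate. The groups share the same 5 livers, and Sqle, Hmgcs1 and Abcg8 were chosen after their values were seen. HFD-3 was the high library in 5 of the 7. Cyp51 stood at 63.0 FPKM in HFD-3 and at 18.0 to 29.2 FPKM in the other HFD livers. Tm7sf2 stood at 26.1 FPKM in HFD-3 and at 3.51 to 7.27 FPKM in the others. The early-step genes showed the same library: Sqle was at 17.2 FPKM in HFD-3 against 1.83 to 2.43 FPKM, Hmgcs1 at 224 FPKM against 32.7 to 81.1 FPKM, and Pmvk at 18.9 FPKM against 8.80 to 10.9 FPKM. HFD-3 also held the highest sums of macrophage and of lymphocyte and neutrophil markers, and their part in these levels was not tested. Abcg5 was high in HFD-4, at 17.2 FPKM against 4.18 to 6.49 FPKM, as was Abcg8, at 1.35 FPKM against 0.192 to 0.517 FPKM.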

How the results depend on the processing

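Under 19 alternative settings for each of the 9 genes, 171 fits in all, the fitted value was lower on the high fat diet in all 171, and 9 passed. With no filter beyond 1 count, 2 of the 9 passed (Lss, adjusted p = 0.0380, and Ebp, adjusted p = 0.0381, by edgeR), and DESeq2 called 6. Leaving out 1 library gave 0 to 1, the 1 being Ebp without ND-1. Their median log2 fold change ranged from -1.56 to -1.03 when 1 library was left out, and was -1.12 with the replicate block. Of all genes, 1 passed in the main comparison, 18 with no filter beyond 1 count, 137 by DESeq2 (69 higher, 68 lower), 2 by limma-voom, 0 by limma on log2(FPKM + 1), 0 with the replicate block, 5 with the depth set as a covariate, and 0 within either depth set; leaving out 1 library gave 0 to 9. Of the 18 early-step and other late-step genes 0 passed in the main comparison, 7 by DESeq2, and 0 to 1 when 1 library was left out (Sqle without HFD-3). The sign turned for Lbr with the replicate block (0.029), and within the shallow set for Soat2 (-0.029), Cyp7b1 (0.37) and Abcg8 (1.60). For Abcg8 it also turned without ND-1, where leaving out 1 library gave -1.28 to 0.097. The cause of these differences was not tested. The Tm7sf2 to Lbr log2 ratio difference lay between -2.18 and -1.52 when 1 library was left out. Other scalings moved the median of all genes by at most 0.0079. Same-numbered libraries of the 2 diets deviated from their means with correlations of 0.112, -0.275 and 0.073, so the shared numbers were not taken to pair the rats, and of the 6 libraries compared 1 correlated best with its own number. With 3 ND livers precision is limited, and values within the shallow set rest on ND-2 alone for that diet.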
